A study of Drosophila melanogaster with 12 samples.

Results

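Muscle contractile genes were followed in nuclear RNA of larval glia from *nonstop*, *sgf11* and wild-type *Drosophila*. Sarcomeric actin, myosin and troponin genes were chosen by FlyBase symbol, which gave 10 genes: the troponin C genes *TpnC73F*, *TpnC47D* and *TpnC25D*, the myosin genes *Mhc*, *Mlc1* and *Mlc2*, the actin genes *Act57B* and *Act87E*, and the troponin T and troponin I genes *up* and *wupA*. Of these, 9 were found among the 15682 genes of the count files. *wupA* has an ID in the current annotation that the files do not list, so no value is given for it. *TpnC73F* was picked because its transcript level differs between the mutants, so its values in every comparison are given as a description, without a test. For the same reason no test is given for any of these genes between *nonstop* and *sgf11*.

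Glial nuclei were isolated through their GFP label, after dissection of eye-brain complexes from wandering larvae of the last instar kept at 25 °C, with 4 libraries for each genotype and 12 in all. The mutants were homozygous for the P element insertion *not02069* (*nonstop*) or the piggyBac insertion *e01308* (*sgf11*, listed there as CG13379), and each mutation was on chromosome 3, as were the driver and the label. The wild-type larvae were not mutant for either gene. All 3 genotypes carried the glial driver *repo-GAL4* and *UAS-KASH-GFP*, a GFP fused to the nuclear membrane anchor of the muscle protein Msp300, in a *w* background. In the wild type, the chromosome with both was kept over the balancer *TM3*, *Sb*. The effects of the mutation and of this difference in chromosome 3 therefore cannot be told apart. Each mutant also had its own chromosome 3, that of *nonstop* with a *ry* allele, so the same holds between *nonstop* and *sgf11*. *TpnC73F*, *Mlc1*, *Mlc2* and *Act87E* lie on chromosome 3. Each library came from a pool of many dissected animals, and the enriched nuclei still hold RNA of other cells.

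In a striated muscle, thick filaments of myosin pull on thin filaments of actin. Each thick filament is built from the myosin heavy chain with its alkali and regulatory light chains, and the thin filament carries tropomyosin and the troponin complex. Troponin C binds calcium, troponin I holds the filament in its relaxed state, and troponin T ties the complex to tropomyosin. Insects have several troponin C and actin genes, used in different muscles and stages, while the fly has a single gene for the heavy chain of muscle myosin. Glia are not muscle, and these transcripts are not markers of them.

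Each *nonstop* library held 7763472 to 11358569 counts on genes, with 6913032 to 9824114 in *sgf11* and 8535880 to 11459317 in wild type. Levels are given as CPM, the counts relative to the library total, on TMM-scaled library sizes. Each targeted transcript was lowest in its own mutant. *not* was at 9.08 to 11.1 CPM in *nonstop* glia and 24.0 to 29.4 CPM in wild-type glia. *not* was also reduced in *sgf11* glia, at 14.4 to 19.7 CPM, below every wild-type library and above every *nonstop* library. *sgf11* was at 0 to 0.147 CPM in *sgf11* glia and 3.09 to 6.20 CPM in wild-type glia. In *nonstop* glia *sgf11* was at 3.54 to 4.59 CPM, within the wild-type range. The summed level of 8 glial marker genes, which include *repo* and *moody*, was 3498 to 5398 CPM in *nonstop*, 3736 to 5995 CPM in *sgf11* and 3855 to 4778 CPM in wild type. None of these 8 was absent. Compared with that, the 9 contractile genes together held 17.1 to 26.0 CPM in *nonstop*, 32.6 to 40.4 CPM in *sgf11* and 11.8 to 70.3 CPM in wild type. This sum includes *TpnC73F*, which was picked for its difference between the mutants. Without it the mutants overlapped, at 14.3 to 23.2 CPM in *nonstop* and 20.2 to 26.8 CPM in *sgf11*. The wild-type range of the 9 genes is wide because of replicate 1, which had 70.3 CPM, while the other 3 wild-type libraries had at most 14.4 CPM. This library is named beside each result that rests on it. In bulk RNA such as this, fewer cells of a type and less RNA per cell cannot be told apart.

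*TpnC73F* (FBgn0010424, chromosome arm 3L) encodes a calcium-binding troponin C. Its level was 2.81, 2.78, 0.963 and 3.23 CPM in the *nonstop* libraries and 12.5, 17.7, 16.3 and 10.7 CPM in the *sgf11* libraries, against 1.64, 1.65, 2.51 and 2.63 CPM in the wild-type libraries. Every *sgf11* library stood above all others, and the *nonstop* and wild-type libraries overlapped. The means were 2.44 ± 1.01 CPM in *nonstop*, 14.3 ± 3.25 CPM in *sgf11* and 2.11 ± 0.538 CPM in wild type (SD, n = 4 each). On the log2 scale of the fit, *TpnC73F* differed from wild type by 0.25 (SE 0.31) in *nonstop* and by 2.75 (SE 0.27) in *sgf11*, and *nonstop* differed from *sgf11* by -2.50 (SE 0.27). Of all 9966 genes tested, 2.11% passed an FDR of 0.01 between the mutants, 1.28% with the lower level in *nonstop*, and the gene was taken from among these. Wild type replicate 1 was at the low end of the wild type for *TpnC73F*. Without it the value in *sgf11* was 2.65 (SE 0.30). Read counts behind these levels were 83 to 135 in the *sgf11* libraries, 7 to 38 in *nonstop* and 15 to 26 in wild type.

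**Figure D1:**
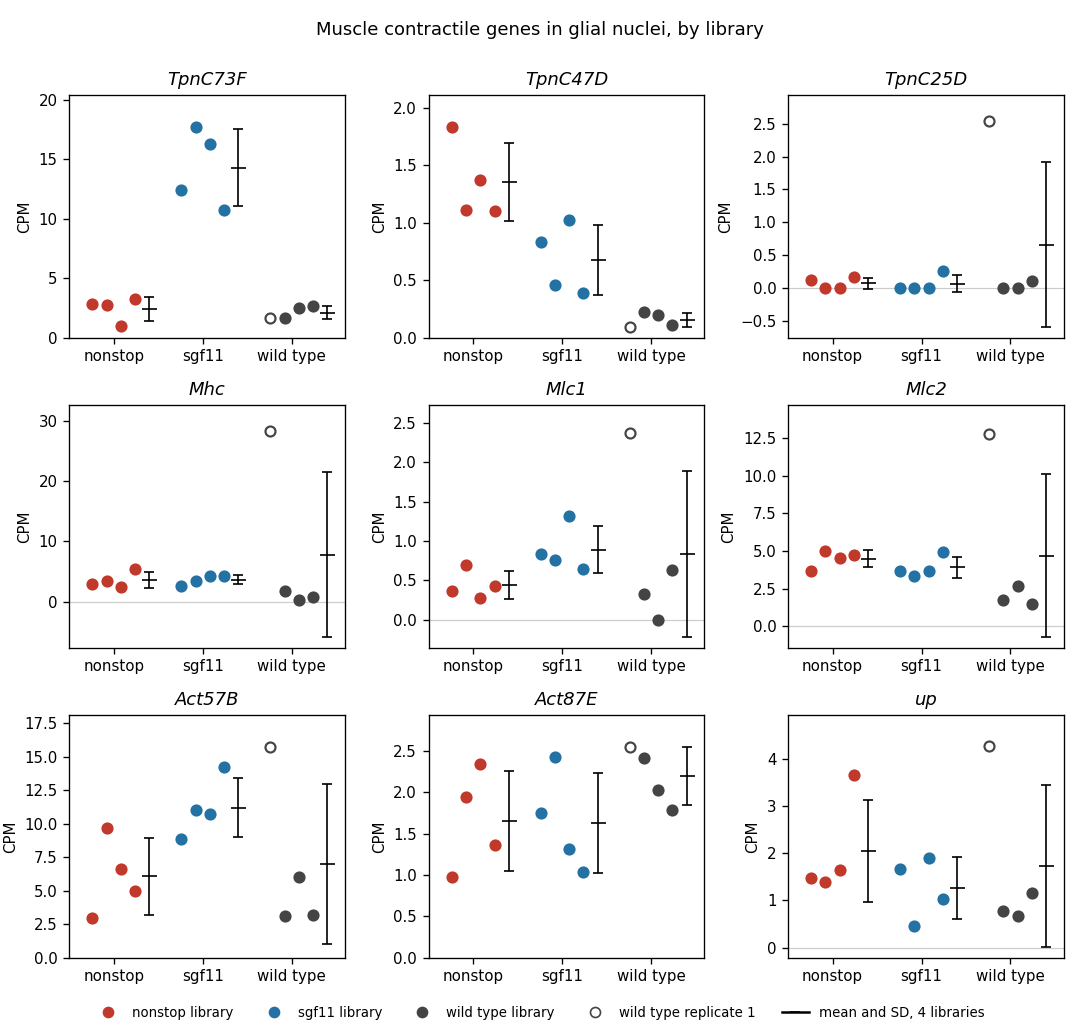
Level of the 9 muscle contractile genes in each library, in CPM, for *nonstop*, *sgf11* and wild type from left to right. Points are libraries, the open point is wild type replicate 1, and the bars give the mean and SD of 4 libraries, some of which reach below 0 where a single library stood far above the rest. *TpnC73F* was at 10.7 to 17.7 CPM in *sgf11* and at most 3.23 CPM elsewhere, while *Mhc* reached 28.4 CPM in wild type replicate 1 and at most 5.44 CPM elsewhere.

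The nearest annotated neighbours of *TpnC73F* on 3L in BDGP6 are *Papst2* and *Pop5* on one side and *rogdi* and *CG7724* on the other. In *sgf11* glia none of the 4 passed the test, with log2 fold changes over wild type of -0.52 (SE 0.22) for *Papst2*, -0.27 (SE 0.33) for *Pop5*, 0.19 (SE 0.14) for *rogdi* and -0.04 (SE 0.46) for *CG7724*, and FDR values of 0.0715 to 0.946 from edgeR's quasi-likelihood test. In *nonstop* glia *Pop5*, a subunit gene of the RNase P complex, fell by 1.45 on the log2 scale (SE 0.37, FDR = 0.00359 from the same test), which was lost without wild type replicate 1 (FDR = 0.0173).

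Over the 12 libraries, the genes with the pattern most like *TpnC73F* were *ACXD*, *trbl*, *CG15822*, *Cad87A* and *Gyc89Da*, with Pearson's r of 0.953 to 0.968 on log2(CPM + 0.5). All 12 points share the division into genotypes, so these r values mostly record that the *sgf11* libraries stand apart. *Gyc89Da*, a guanylyl cyclase gene, averaged 2.56 ± 0.580 CPM in *nonstop*, 40.5 ± 9.35 CPM in *sgf11* and 1.0 ± 0.0986 CPM in wild type (SD, n = 4 each). The cadherin gene *Cad87A* averaged 244 ± 18.5 CPM in *nonstop*, 1136 ± 182 CPM in *sgf11* and 189 ± 4.24 CPM in wild type. *trbl*, the pseudokinase gene *tribbles*, varied far less, at 29.4 ± 1.82 CPM in *nonstop*, 39.9 ± 1.27 CPM in *sgf11* and 30.7 ± 1.65 CPM in wild type. The arm was 3L for 3 of the 5 and 3R for the other 2, where 44.6% of all tested genes with an arm lie on 3L or 3R. Among the other tested contractile genes, r to *TpnC73F* lay between -0.349 (*Act87E*) and 0.475 (*Act57B*). Wild type replicate 1, where *Act57B* was at 15.7 CPM, is part of these r values. *Act57B* also had its highest mean in *sgf11*, at 11.2 ± 2.23 CPM, against 6.07 ± 2.86 CPM in *nonstop* and 6.99 ± 5.99 CPM in wild type (SD, n = 4 each). The genes most like the mean of the other tested contractile genes were *CG10336*, *Mf*, *RIOK2*, *mRpS10* and FBgn0004028, an ID with no symbol in the annotation used here, with r of 0.824 to 0.847 over the 12 libraries. Each of these was higher in wild type replicate 1 than its mean in any genotype, so these r values rest partly on that library. *Mf* was at 6.55 CPM there and *CG10336* at 5.73 CPM, against wild-type means of 2.11 and 3.61 CPM.

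Of the fat body genes, the larval serum protein genes *Lsp1alpha*, *Lsp1beta* and *Lsp2*, which encode storage proteins that the fat body secretes, rose in *sgf11* glia by 1.37 (SE 0.34), 1.24 (SE 0.25) and 1.16 (SE 0.27) on the log2 scale (FDR from 6.61e-04 to 0.00328 from the same test), and none of these 3 passed the test in *nonstop* glia. *Lsp2* was at 6.84 to 14.0 CPM in *nonstop* and 20.8 to 40.6 CPM in *sgf11*, against 9.46 to 22.3 CPM in wild type, and its exons overlap an antisense RNA gene by 2096 bases. *Fbp1*, a receptor gene for larval serum protein, fell by 4.27 in *nonstop* and by 2.36 in *sgf11* on the same scale. Wild type replicate 1 raises the wild-type mean of *Fbp1*, with 53.2 CPM against at most 21.9 CPM in any other library. In all, 3 of 6 fat body genes rose and 1 fell in *sgf11* glia (16.4% and 14.1% of all 9966 genes). In *nonstop* glia 2 of them fell (17.0% of all genes), of which 1 was left without wild type replicate 1. Their summed level was 32.9 to 51.3 CPM in *nonstop*, 73.2 to 148 CPM in *sgf11* and 65.0 to 143 CPM in wild type, where replicate 1 had the highest value, and none of the 6 was at 0 in a whole group. The part of fat body RNA in the *TpnC73F* level was not tested.

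**Figure D2:**
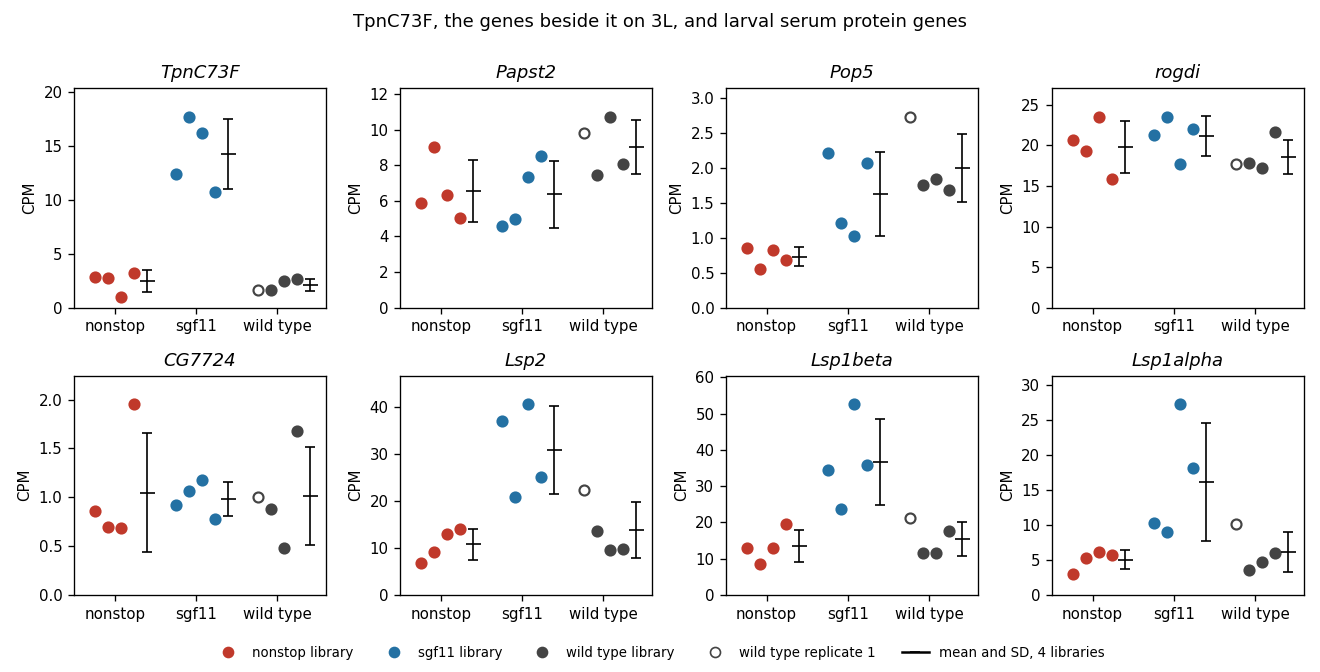
Level in CPM by library for *TpnC73F*, its 4 neighbours on 3L (*Papst2*, *Pop5*, *rogdi* and *CG7724*) and the serum protein genes *Lsp2*, *Lsp1beta* and *Lsp1alpha*, for *nonstop*, *sgf11* and wild type from left to right. Points are libraries (open for wild type replicate 1) and bars give the mean and SD of 4 libraries. *TpnC73F* was at 10.7 to 17.7 CPM in *sgf11* and at most 3.23 CPM elsewhere, while for each of the 4 neighbours the *sgf11* and wild-type libraries overlapped.

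*TpnC47D* (FBgn0010423, arm 2R), a second troponin C gene, was low throughout. Its level was 1.83, 1.11, 1.38 and 1.10 CPM in *nonstop* and 0.830, 0.455, 1.03 and 0.388 CPM in *sgf11*, against 0.0910, 0.219, 0.193 and 0.105 CPM in wild type. No wild-type library reached the level of any mutant library, and the *nonstop* libraries lay above those of *sgf11*. The log2 fold change over wild type was 3.05 (SE 0.51) in *nonstop* and 2.08 (SE 0.57) in *sgf11*, and *nonstop* differed from *sgf11* by 0.97 (SE 0.42). These values rest on 46 reads over the 4 *nonstop* libraries, 22 over *sgf11* and 6 over wild type. The gene passed the filter on low values (over 1 CPM in at least 4 libraries) through mutant libraries, since 4 *nonstop* libraries, 1 *sgf11* library and 0 wild-type libraries were over 1 CPM. A difference was thus built into its selection, and these values are given without a test. In a fit of all 14259 genes with a count in any library, with no such filter, *TpnC47D* rose by 3.01 in *nonstop* (SE 0.61, with an FDR of 3.20e-04 by edgeR's quasi-likelihood test) and did not pass the threshold of 0.01 in *sgf11* (2.02, SE 0.65, FDR = 0.0180).

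*TpnC25D* (FBgn0031692, arm 2L), the remaining troponin C gene, was close to absent. It had 3 reads over the 4 *nonstop* libraries (0.122, 0, 0 and 0.170 CPM) and 2 over the 4 *sgf11* libraries (0, 0, 0 and 0.259 CPM), against 29 in wild type (2.55, 0, 0 and 0.105 CPM). Of these, 28 came from replicate 1. It was below the filter, and with no filter it did not pass the test in *nonstop* (FDR = 0.0806) or in *sgf11* (FDR = 0.0710). Its exons overlap those of *tkv*, on the opposite strand, by 54 bases, where counts without regard to strand do not tell the genes apart.

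In all, 7 of the 9 genes passed the filter, and *Mlc1* and *TpnC25D* did not. Of the 5 that passed other than *TpnC73F* and *TpnC47D*, 0 were called in either mutant, and 0 of these reached an unadjusted p of 0.05 with edgeR's quasi-likelihood test, its exact test or DESeq2. Over the 9966 genes that passed, 18.7% rose and 17.0% fell in *nonstop*, and 16.4% rose and 14.1% fell in *sgf11*. With no filter, 1 of the 8 genes other than *TpnC73F* was called in *nonstop* (*TpnC47D*) and 0 in *sgf11*, where 25.9% and 22.3% of all 14259 genes were called, and *TpnC25D* and *TpnC47D* reached an unadjusted p of 0.05 in both mutants. With library size alone in place of TMM, 39.6% of all calls in *nonstop* were higher, against 52.3% with TMM, and 49.8% in *sgf11*, against 53.8%. Both comparisons share the wild-type libraries.

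*Mhc* (FBgn0264695, arm 2L), the gene for the muscle myosin heavy chain, shows how far these comparisons rest on a single library. Its level was 2.93, 3.33, 2.48 and 5.44 CPM in *nonstop* and 2.58, 3.49, 4.25 and 4.27 CPM in *sgf11*, against 28.4, 1.76, 0.290 and 0.736 CPM in wild type. Replicate 1 held 312 of the 338 wild-type reads (92.3%). It stood above all mutant libraries, and the other 3 wild-type libraries stood below all of them. With all libraries, its log2 fold change did not pass the test in *nonstop* (-1.12, SE 0.83, FDR = 0.277) or in *sgf11* (-1.14, SE 0.84, FDR = 0.289). Replicate 1 was left out after its high values were seen, which favours a rise over the wild-type libraries that remain. FDR values of edgeR's quasi-likelihood test without it, here and below, carry this limit. *Mhc* was over 1 CPM in 4 *nonstop*, 4 *sgf11* and 2 wild-type libraries, replicate 1 included. Without replicate 1 the sign turned, and *Mhc* rose by 2.0 (SE 0.45, FDR = 0.00233) in *nonstop* glia and by 1.99 (SE 0.46, FDR = 0.00296) in *sgf11*. Between the mutants it differed by 0.01 (SE 0.90).

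*Mlc2* (FBgn0002773, arm 3R), the regulatory light chain gene, had 3.67, 5.0, 4.54 and 4.76 CPM in *nonstop* and 3.69, 3.33, 3.66 and 4.91 CPM in *sgf11*, against 12.7, 1.76, 2.70 and 1.47 CPM in wild type. As for *Mhc*, the mutant libraries lay between replicate 1 and the other wild-type libraries. The log2 fold change was -0.08 (SE 0.48, FDR = 0.903) in *nonstop* glia and -0.28 (SE 0.49, FDR = 0.674) in *sgf11* with all libraries. Without replicate 1 it was 1.19 (SE 0.27, FDR = 0.00231) in *nonstop* glia and 0.98 (SE 0.27, FDR = 0.0102) in *sgf11*, just short of the threshold. *Mlc1* (FBgn0002772, arm 3R), the alkali light chain gene, was below the filter, at 0.367, 0.694, 0.275 and 0.425 CPM in *nonstop* and 0.830, 0.758, 1.32 and 0.646 CPM in *sgf11*, against 2.37, 0.329, 0 and 0.631 CPM in wild type. Its 4 *sgf11* libraries lay above the wild-type libraries other than replicate 1, which held 26 of 35 wild-type reads.

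The actin genes differed from each other. *Act57B* (FBgn0000044, arm 2R), a muscle actin gene of the embryo and larva, had 2.93, 9.72, 6.60 and 5.01 CPM in *nonstop* and 8.85, 11.1, 10.7 and 14.2 CPM in *sgf11*, against 15.7, 3.07, 5.99 and 3.15 CPM in wild type. With all libraries its log2 fold change was -0.24 (SE 0.43, FDR = 0.661) in *nonstop* glia and 0.65 (SE 0.41, FDR = 0.210) in *sgf11*. Without replicate 1 it was 0.56 (SE 0.34, FDR = 0.198) in *nonstop* glia and 1.45 (SE 0.33, FDR = 0.00274) in *sgf11*, where all 4 libraries then lay above the wild type. Between the mutants, *nonstop* differed from *sgf11* by -0.90 (SE 0.43) with all libraries and by -0.89 (SE 0.30) without replicate 1. *Act87E* (FBgn0000046, arm 3R), a related muscle actin gene, had 0.978, 1.94, 2.34 and 1.36 CPM in *nonstop* and 1.75, 2.42, 1.32 and 1.03 CPM in *sgf11*, against 2.55, 2.41, 2.03 and 1.79 CPM in wild type. The groups overlapped, and its log2 fold change of -0.43 in each mutant (SE 0.34 in both, FDR = 0.310 in *nonstop* and 0.323 in *sgf11*) hardly moved without replicate 1 (-0.32 and -0.34). Fly actin genes have nearly the same coding sequence, and alignments that are not unique were not assigned to a gene. The actin counts are therefore uncertain. Such alignments were 95.1 to 95.9% of all entries in the count files, where each can be counted more than once. How many of them come from actin genes is not known. Exons of *Act57B* also overlap those of a small nucleolar RNA gene on the same strand by 96 bases, and those of *Act87E* a long non-coding RNA gene on the opposite strand by 60 bases.

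*up* (*upheld*, FBgn0004169, X chromosome), the troponin T gene, had 1.47, 1.39, 1.65 and 3.65 CPM in *nonstop* and 1.66, 0.455, 1.90 and 1.03 CPM in *sgf11*, against 4.28, 0.768, 0.676 and 1.16 CPM in wild type. The groups overlapped. Its log2 fold change was 0.27 (SE 0.54, FDR = 0.707) in *nonstop* glia and -0.44 (SE 0.57, FDR = 0.565) in *sgf11*. Without wild type replicate 1 it was 1.29 (SE 0.49, FDR = 0.0441) and 0.58 (SE 0.52, FDR = 0.403), and neither passed the threshold of 0.01.

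Without wild type replicate 1, which was left out after its values were seen, 2 of the 5 tested genes other than *TpnC73F* and *TpnC47D* rose in *nonstop* (*Mhc* and *Mlc2*) and 2 in *sgf11* (*Mhc* and *Act57B*), and none of the 5 fell. Over all 9934 genes tested in that fit, 16.3% rose and 13.6% fell in *nonstop*, and 14.3% rose and 11.4% fell in *sgf11*. *Mhc* was over 1 CPM in only 2 wild-type libraries, replicate 1 included, so the fit was repeated with no filter, and *Mhc* again rose, by 1.93 (FDR = 0.00134) in *nonstop* glia and by 1.92 (FDR = 0.00180) in *sgf11*. Of the 8 genes other than *TpnC73F*, 3 then rose in *nonstop* (*TpnC47D*, *Mhc* and *Mlc2*) and 2 in *sgf11* (*Mhc* and *Act57B*), where 21.5% and 19.0% of all 14220 genes were called in either direction. The summed level of the 8 genes other than *TpnC73F* was 14.3, 23.2, 19.3 and 21.9 CPM in *nonstop* and 20.2, 22.0, 24.2 and 26.8 CPM in *sgf11*, against 68.7, 10.3, 11.9 and 9.15 CPM in wild type. The mutant libraries all lay above the wild-type libraries other than replicate 1 and far below replicate 1.

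**Figure D3:**
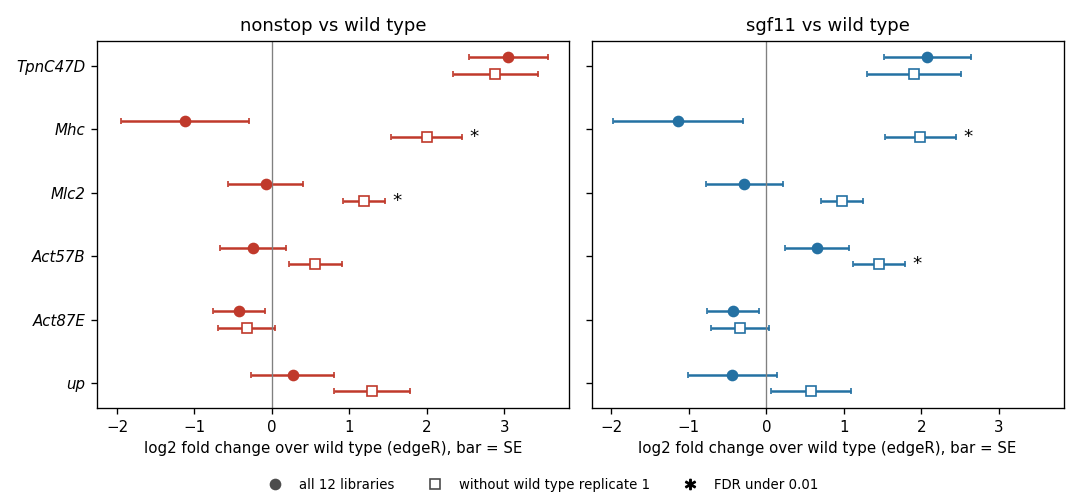
Log2 fold change over wild type of 6 genes in *nonstop* (left) and *sgf11* (right), with bars for the SE of edgeR's fit. Filled circles are the fit of all 12 libraries and open squares the fit without wild type replicate 1. Asterisks mark an FDR under 0.01, with none drawn for *TpnC47D*. Replicate 1 was left out after its high values were seen, which favours a rise. Without this library *Mhc* lay at 2.0 in *nonstop* and 1.99 in *sgf11*, where it lay at -1.12 and -1.14 with all libraries.

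Wild type replicate 1 was high in a narrow set of transcripts. By a rule chosen after its values were seen, a gene with at least 10 reads there was counted if its CPM exceeded 2 times the highest of the other 11 libraries, and 25 of 9228 genes did (0.271%). They included *Mhc*, *Mlc2* and *TpnC25D*. The same rule found 0.0411 to 0.988% of genes in the other libraries, and 0 of the contractile genes. Further muscle genes among the 25 were the adult muscle actin gene *Act79B* (5.82 CPM, against at most 0.340 elsewhere), the thick filament gene *Prm* (paramyosin, 3.18 CPM, against at most 1.06), *Mf* (myofilin, 6.55 CPM, against at most 1.82) and *Obsc* (the M-line giant kinase also named *Unc-89*, 4.73 CPM, against at most 2.21). Genes of other cell types were among them too: the rhodopsin gene *ninaE* with the arrestin genes *Arr1* and *Arr2*, and the fat body gene *Fbp1* (53.2 CPM, against at most 21.9). *TpnC73F*, *TpnC47D* and *Act87E* were not raised in this library. The library was also the lowest of the wild type in the summed level of 6 neuronal genes (535 CPM, against 607 to 774), and its 8 glial genes were the highest (4778 CPM, against 3855 to 4424). The part of these differences in the contractile gene levels was not tested.

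**Figure D4:**
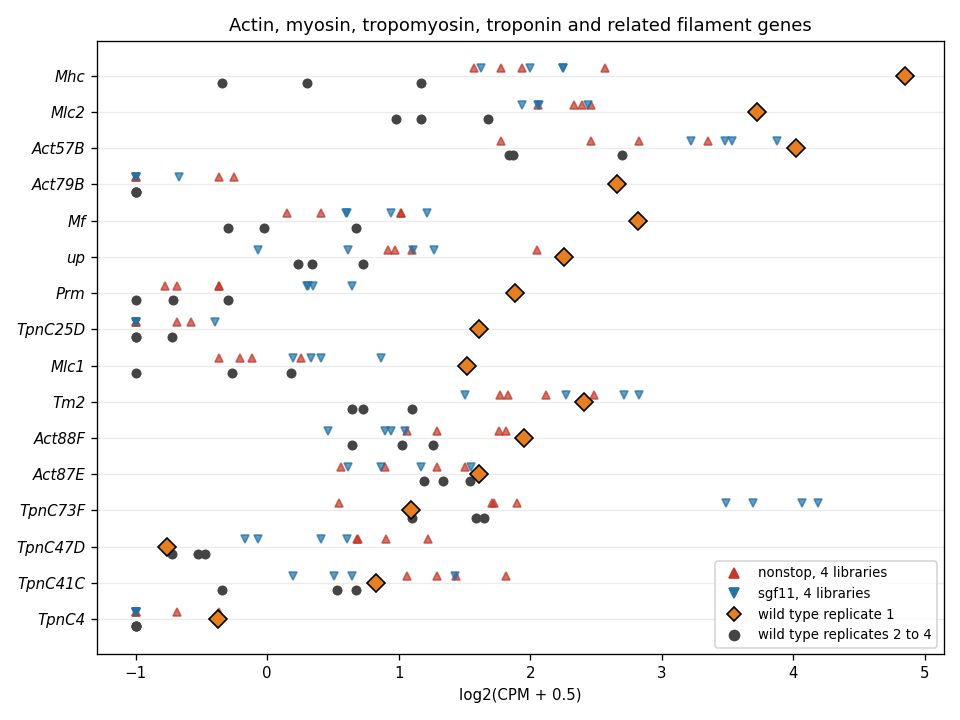
Level as log2(CPM + 0.5) of 16 actin, myosin, tropomyosin, troponin and related filament genes in each library. Upward triangles are *nonstop*, downward triangles *sgf11*, diamonds wild type replicate 1 and circles wild type replicates 2 to 4. The diamond lies right of all other points for *Mhc*, *Mlc2*, *Act57B*, *Act79B*, *Mf*, *up*, *Prm*, *TpnC25D*, *Mlc1*, *Act88F* and, by a narrow margin, *Act87E*, and not for *TpnC73F*, *TpnC47D*, *TpnC41C*, *TpnC4* or *Tm2*.

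Corrected for exon length (FPKM, with BDGP6 exon lengths), the contractile genes were all low. In *nonstop* the order was *Act57B* (3.52 ± 1.66), *TpnC73F* (2.31 ± 0.953), *Mlc2* (1.96 ± 0.254) and *TpnC47D* (1.71 ± 0.433, SD, n = 4 each), neighbours that did not differ beyond their spread, and the other 5 were under 1 FPKM. In *sgf11*, *TpnC73F* (13.5 ± 3.07) came before *Act57B* (6.50 ± 1.29) and *Mlc2* (1.71 ± 0.304), each apart from the next by more than its SD. The other 6 were under 1 FPKM. In wild type, *Act57B* (4.05 ± 3.47), *Mlc2* (2.04 ± 2.36), *TpnC73F* (1.99 ± 0.508) and *Act87E* (1.10 ± 0.176) led, and the spread of *Act57B* and *Mlc2* is that of replicate 1. For scale, the non-muscle actin gene *Act5C* was at 638 FPKM in *nonstop*, 700 FPKM in *sgf11* and 1021 FPKM in wild type.

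Among the other genes of thin and thick filaments, 1 rose in both mutants. *fln* (flightin, FBgn0005633, arm 3L), known as a thick filament protein of flight muscle, had 63.6, 62.5, 43.6 and 40.6 CPM in *nonstop* and 46.9, 82.3, 83.7 and 55.6 CPM in *sgf11*, against 3.82, 4.94, 4.73 and 6.94 CPM in wild type. The lowest mutant library was above every wild-type library, and wild type replicate 1 was the lowest of all. The log2 fold change was 3.36 (SE 0.23, FDR = 6.70e-09) in *nonstop* glia and 3.71 (SE 0.23, FDR = 2.65e-09) in *sgf11*. Exons of *fln* overlap the antisense RNA gene *asRNA:CR45161* by 801 bases in BDGP6, and since strand was not used in counting, reads of this RNA cannot be told apart from those of *fln*. Of 11 genes listed in this group, 10 were in the files and 7 were tested. In *nonstop* 1 rose and 0 fell (18.7% and 17.0% of all 9966 genes). In *sgf11* 1 rose and 1 fell (16.4% and 14.1% of all genes). The one that fell was *Tm1*, a tropomyosin gene with non-muscle products and the second highest of this group per length after *fln* in both mutants (-0.32, SE 0.09, FDR = 0.00962). *Tm1* averaged 38.6 FPKM in *nonstop* and 37.7 FPKM in *sgf11*, against 47.2 FPKM in wild type, and without wild type replicate 1 its FDR in *sgf11* was 0.0143. *Tm2*, the muscle tropomyosin gene, had 3.06, 2.92, 3.85 and 5.10 CPM in *nonstop* and 4.33, 6.06, 2.34 and 6.59 CPM in *sgf11*, against 4.82, 1.65, 1.06 and 1.16 CPM in wild type, and it passed the test without replicate 1 (1.57 in *nonstop*, FDR = 0.00328, and 1.91 in *sgf11*, FDR = 8.34e-04) but not with all libraries (0.77, FDR = 0.141, and 1.13, FDR = 0.0376). The other troponin C genes of the group were low. The *nonstop* value of *TpnC41C* was 1.27 on the log2 scale (SE 0.43, FDR = 0.0226), that of *sgf11* was 0.39, and *TpnC4* was at no more than 0.278 CPM in any library. The median of the 7 was 0.26 in *nonstop* and 0.15 in *sgf11*.

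Of the giant proteins and anchors of the sarcomere (Z-disc, titin-like and M-line genes), 8 of 10 were in the files, 6 were tested, and 0 passed edgeR's quasi-likelihood test in either mutant. An unadjusted p under 0.05 was reached by 0 genes in *nonstop* and 4 in *sgf11*, of which edgeR's exact test and DESeq2 each called 2. The gene of highest level per length was *Actn* (alpha-actinin), which also crosslinks actin outside muscle, at 14.7 FPKM in *nonstop* and 12.7 FPKM in *sgf11*, against 16.0 FPKM in wild type. *sls*, the titin-like gene *sallimus*, had 143 to 217 CPM in *nonstop* and 191 to 266 CPM in *sgf11*, against 164 to 204 CPM in wild type. The median log2 fold change of the 6 was -0.03 in *nonstop* and -0.26 in *sgf11*. For comparison, edgeR's quasi-likelihood test called 35.7% of all 9966 genes in *nonstop* and 30.5% in *sgf11*.

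Of 4 tested calcium handling genes, 1 rose and 1 fell in each mutant. Over all 9966 genes, 18.7% rose and 17.0% fell in *nonstop*, and 16.4% rose and 14.1% fell in *sgf11*. *Ca-alpha1D*, an L-type calcium channel gene of muscle and neurons, rose by 0.88 (SE 0.19, FDR = 0.00107) in *nonstop* glia and by 0.80 (SE 0.19, FDR = 0.00265) in *sgf11*, the second of which was lost without wild type replicate 1 (FDR = 0.0108). *SERCA*, the calcium pump of the endoplasmic and sarcoplasmic reticulum in every cell, fell by 0.45 (SE 0.09, FDR = 7.03e-04) in *nonstop* glia and by 0.34 (SE 0.09, FDR = 0.00582) in *sgf11*, of which the second was likewise lost (FDR = 0.0119). Exons of *SERCA* overlap *CG2812* on the opposite strand by 1325 bases. It had the highest level of the group per length, at 28.6 FPKM in *nonstop* and 30.7 FPKM in *sgf11*, against 39.0 FPKM in wild type. *RyR* did not pass the test with all libraries in *nonstop* (0.60, SE 0.20, FDR = 0.0183) or *sgf11* (0.53, SE 0.20, FDR = 0.0368). Without wild type replicate 1 it passed in *nonstop* (0.75, SE 0.21, FDR = 0.00839) and not in *sgf11* (0.68, SE 0.21, FDR = 0.0172). Of 6 genes listed, 4 were in the files and all 4 were tested, with a median log2 fold change of 0.27 in *nonstop* and 0.49 in *sgf11*.

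Among transcription factors of the muscle lineage, *Mef2*, which drives muscle differentiation and is also used in neurons and other tissues, was the highest and the only one of 4 tested genes that passed the test. It had 96.8, 104, 102 and 97.8 CPM in *nonstop* and 82.8, 90.9, 102 and 86.4 CPM in *sgf11*, against 58.5, 65.4, 68.1 and 71.9 CPM in wild type. Its log2 fold change was 0.60 (SE 0.09, FDR = 5.18e-05) in *nonstop* glia and 0.45 (SE 0.09, FDR = 8.43e-04) in *sgf11*, and replicate 1, which was high in sarcomere transcripts, had the lowest *Mef2* level of the 12 libraries. The other 6 of 10 listed factors were below the filter, and *bin* had no read in any library. Shares called over all 9966 genes were 35.7% in *nonstop* and 30.5% in *sgf11*. Of 10 tested genes of myoblast fusion and attachment, the integrin gene *if* rose in both mutants (0.95 in *nonstop* and 0.65 in *sgf11*) and *kon* fell in both (-0.47 and -0.44), in *sgf11* only with wild type replicate 1 (FDR = 0.0114 without it). *blow* and *mbc* fell in *nonstop* (-0.48 and -0.38), the fall of *mbc* only with wild type replicate 1 (FDR = 0.0104 without it), and *rst* rose in *sgf11* (0.58). *mys*, the beta integrin gene and the highest of the group per length, was at 55.8 FPKM in *nonstop* and 60.4 FPKM in *sgf11*, against 68.7 FPKM in wild type. These genes also act in adhesion and cell engulfment outside muscle.

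Among actin and myosin genes used in every cell, those called were lower in the mutants. *Act42A* had 197, 230, 197 and 225 CPM in *nonstop* and 271, 228, 212 and 238 CPM in *sgf11*, against 522, 466, 463 and 454 CPM in wild type. It fell by 1.17 (SE 0.10, FDR = 9.22e-08) in *nonstop* glia and by 1.0 (SE 0.10, FDR = 6.60e-07) in *sgf11*. *Act5C*, the most abundant actin gene here, fell by 0.68 (SE 0.13) in *nonstop* and by 0.55 (SE 0.13) in *sgf11*, and *sqh*, the non-muscle regulatory light chain gene, fell by 0.51 (SE 0.10) in *nonstop*. The group had 6 listed genes, including the calmodulin gene *Cam*. The non-muscle myosin heavy chain gene *zip* was not found in the count files under its current ID, and the other 5 were tested. Of these, 3 fell in *nonstop* and 2 in *sgf11* (17.0% and 14.1% of all 9966 genes fell), and none rose. The calls were the same in number without wild type replicate 1.

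**Figure D5:**
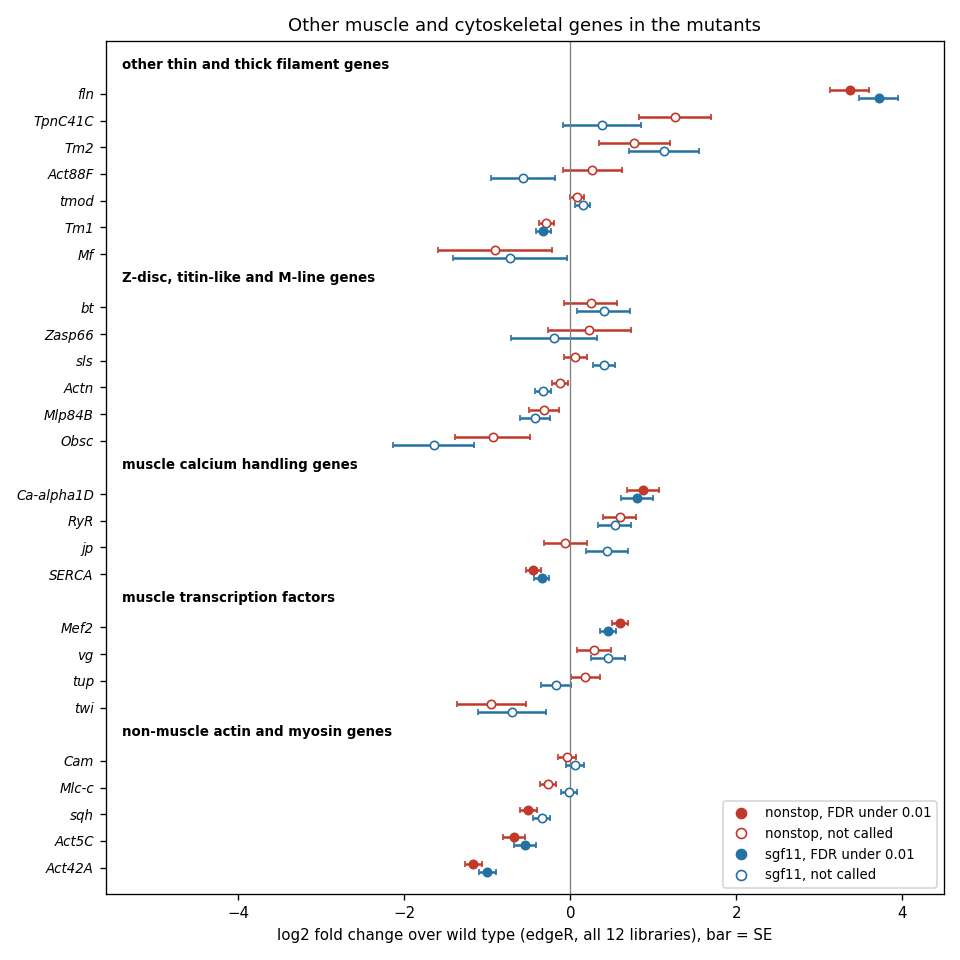
Log2 fold change over wild type of other muscle and cytoskeletal genes in *nonstop* and *sgf11*, from the fit of all 12 libraries, grouped by role. Bars give the SE of edgeR's fit, filled points have an FDR under 0.01 and open points do not. *fln* lies at 3.36 in *nonstop* and 3.71 in *sgf11*, *Act42A* at -1.17 and -1.0, and most sarcomere genes have open points.

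Markers of other cell types that the enriched nuclei could hold were counted in the same fit. There, 18.7% of all 9966 genes rose and 17.0% fell in *nonstop*, and 16.4% rose and 14.1% fell in *sgf11*. Of 6 neuronal genes 4 rose in each mutant, with a summed level of 814 to 939 CPM in *nonstop* and 776 to 867 CPM in *sgf11*, against 535 to 774 CPM in wild type, and without wild type replicate 1 the calls were 3 in *nonstop* and 2 in *sgf11*. Of 5 tested hemocyte genes and 5 tested tracheal and epidermal genes, 0 passed edgeR's quasi-likelihood test in either mutant, and edgeR's exact test and DESeq2 also called 0. An unadjusted p under 0.05 in the first test was reached by 1 hemocyte gene in each mutant, and by 2 tracheal and epidermal genes in *nonstop* and 1 in *sgf11*. Among glial genes, *Eaat1* and *nrv2* rose and *loco* and *moody* fell in *nonstop*, and *Eaat1* and *Gs2* rose in *sgf11*. Without wild type replicate 1 only *nrv2* in *nonstop* was left of these. Their part in the contractile gene levels was not tested.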

How the data were processed

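The 12 libraries hold nuclear RNA of glial nuclei, 4 for each genotype as labelled. The authors made the deposited counts with Trimmomatic 0.32, TopHat2 2.0.13 and Bowtie2 2.2.4 on BDGP5, and HTSeq 0.6.1, which ignored strand. The deposited values are whole counts. Entries that name no gene, 96.1 to 96.7% of all entries (mostly alignments that are not unique, each of which can be counted more than once), were left out. The 2 deposited edgeR tables hold fold changes and p-values of the authors and were not used.

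Counts were normalized by TMM and tested with edgeR 4.0.16 (quasi-likelihood, R 4.3.3) in 1 fit of all libraries, for 9966 genes over 1 CPM in at least 4 libraries, with Benjamini-Hochberg adjustment over all of them and an FDR threshold of 0.01. In this depth, 1 CPM is 6.91 to 11.5 reads. The biological coefficient of variation was 0.154. Fold changes use a prior count of 0.125, and the SE is that of the fit. P-values measure the spread between the libraries, each from its own pool of dissected animals. Libraries of 1 genotype differed by more than sampling noise (chi-square per gene 9.79 to 42.1), so none was counted as a duplicate. Symbols, arms and exon lengths came from the BDGP6 annotation, which matched 15002 of 15682 IDs. Figures were drawn with matplotlib 3.10.9 from tables made with pandas 2.3.3.

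The genes, lists and tests were chosen with earlier results of these data known. Named genes were all contractile genes of the list, the targeted genes, up to 4 called genes of each other list by fold change with the highest gene per length, the 2 nearest genes on each side of *TpnC73F*, overlapping genes, and the 5 genes most alike in pattern to *TpnC73F* and to the mean of the others. Genes high in wild type replicate 1 were named after their values were seen. The script was tested on simulated data. Alternatives were edgeR's exact test, DESeq2 1.42.0, other scalings and filters, fits of 2 groups, a threshold of 0.05, the replicate number as a block, leaving out each library in turn and, added after the data were seen, a robust fit and fits without wild type replicate 1 over the genes of the main filter and with no filter.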

Additional observations from a re-analysis of the deposited data

Results flagged for a closer look

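Of 27 groups of 4 libraries, 6 held a library that lay far from the other 3 by Dixon's criterion. The criterion takes its gap to the nearest library as a share of the whole range. For normally distributed values, chance gives such a library in about 1 in 20 groups. That rate need not hold for counts as low as these. Wild type replicate 1 was such a library for *TpnC25D* (2.55 CPM), *Mhc* (28.4 CPM), *Mlc2* (12.7 CPM) and *up* (4.28 CPM). The other 2 were *up* in *nonstop* replicate 4 (3.65 CPM) and *TpnC25D* in *sgf11* replicate 4 (0.259 CPM, which is 2 reads where the other 3 libraries had 0). *TpnC73F* differed between the mutants by -2.50 on the log2 scale (*nonstop* over *sgf11*, SE 0.27), the difference for which it was picked.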

How the results depend on the processing

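The log2 difference of *TpnC73F* between *nonstop* and *sgf11* (-2.50) lay between -2.68 and -2.24 when each library was left out in turn and between -2.55 and -2.48 under the other alternatives. *TpnC47D* passed the filter through mutant libraries, so in both mutants its calls in filtered fits are a description and not a test. The number of contractile genes other than *TpnC73F* called in *nonstop* was 1 (*TpnC47D*, whose selection favoured a difference), and 1 to 3 with a library left out. It was 0 where library totals included the entries that name no gene, since none then passed the filter, and 3 without wild type replicate 1, both over the genes of the main filter and with no filter. In *sgf11* it was 1 (*TpnC47D*), and 0 to 2 with a library left out. It was 0 with DESeq2, with library size only, with no filter on low counts, with that other filter, with only the 2 groups compared and with the replicate block, and 2 without wild type replicate 1, again in both of those fits. The log2 fold change of *TpnC47D* in *sgf11* was 1.84 to 2.17 under the alternatives that tested it and 1.86 to 2.29 with a library left out. The share of all 9966 genes called in the main fit was 35.7% in *nonstop* and 30.5% in *sgf11*. Of 31 other muscle genes tested, 8 were called in *nonstop*, and 6 to 10 with a library left out. In *sgf11* 8 were called, and 5 to 9 with a library left out, 5 with library size only, 14 at an FDR of 0.05 and 5 without wild type replicate 1 over the genes of the main filter.

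Signs turned in these cases. Without wild type replicate 1, *Mhc* was at 2.0 in *nonstop* and 1.99 in *sgf11*, *Mlc2* at 1.19 and 0.98, *Act57B* at 0.56 in *nonstop* and *up* at 0.58 in *sgf11*, with the same values to 2 decimals over the genes of the main filter. With no filter they were 1.93 and 1.92 (*Mhc*), 1.13 and 0.92 (*Mlc2*), 0.50 (*Act57B*) and 0.51 (*up*). *Mlc2* in *nonstop* was also at 0.23 with the replicate block and 0.01 without *nonstop* replicate 1, and *up* in *nonstop* was at -0.22 without *nonstop* replicate 4. With each library left out in turn, *Mhc* ranged from -1.50 to 2.0 in *nonstop* and from -1.52 to 1.99 in *sgf11*, *Mlc2* from -0.35 to 1.19 and from -0.56 to 0.98, *Act57B* in *nonstop* from -0.55 to 0.56, and *up* from -0.22 to 1.29 and from -0.69 to 0.58. Over all genes, library size only moved the median to -0.12 in *nonstop* and the share of higher calls to 39.6%, against 52.3% with TMM. The filter with entries that name no gene tested 3633 genes and called 1740 in *nonstop* and 1565 in *sgf11*, against 3561 and 3037.

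Same-numbered libraries showed little sign of deviating together (correlations -0.08 to 0.12, over 0.1 in 2 of 12 pairs). Only 1 of 12 libraries correlated best with its own number in both other genotypes. No pairing by number was thus seen, though with 4 libraries per genotype a weak one could be missed. The replicate block gave 3465 calls in *nonstop* and 3025 in *sgf11*. Depth limits *TpnC47D*, *TpnC25D* and *Mlc1*, with 74, 34 and 78 reads in all.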
